A study of Mus musculus with 6 samples.

Results

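Fatty acids are burned in mitochondria and in peroxisomes. In mitochondria, fatty acyl groups enter as carnitine esters and lose acetyl-CoA units through repeated turns of beta-oxidation, with electron transfer flavoproteins carrying the electrons to the respiratory chain. Peroxisomes shorten very long-chain acyl groups, remove a carbon from branched chains by alpha-oxidation, and destroy the hydrogen peroxide that their oxidases make with catalase. In the small intestine the absorptive enterocytes carry both pathways and, in suckling rodents, also make ketone bodies, the water-soluble fuels that the liver makes from acetyl-CoA. Many of these genes are known targets of the fatty-acid-sensing nuclear receptor PPARα, the product of Ppara.

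The genes described here are 35 listed genes of mitochondrial fatty acid oxidation, peroxisomal fatty acid oxidation and ketone synthesis, taken by symbol, with earlier results of these data known. Each was represented by the probe set annotated to that gene alone, and where a gene had several, by the one with the highest mean over the 6 arrays. That left 33 of the 35 genes, among 19938 genes tested. Acsl1 is not analysed here, and Acsl3 was only on a probe set shared with another gene and was not used. Hadhb was the only member with several probe sets. The other one read 0.06 lower on each of the 6 arrays, so its equal difference cannot be taken as a separate measurement.

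RNA was measured on 6 Affymetrix Mouse Gene 1.0 arrays, 3 from small intestine of E-cadherin conditional knockout mouse embryos (cKO) and 3 from control embryos, whose genotype is labelled wildtype. E-cadherin, encoded by Cdh1, joins neighbouring epithelial cells. All embryos were at day E18.5, shortly before birth, and the tissue was rinsed, preserved and extracted whole. The sources used here do not give the Cre driver, which exons were removed, or the sex of the embryos. Because whole tissue was measured, fewer cells of a type and less RNA per cell cannot be told apart. Values are log2 expression values, and a difference is the cKO mean minus the control mean on that scale. A gene was called lower or higher where its limma p-value, adjusted by the Benjamini-Hochberg method over all 19938 genes, was under 0.05. Arrays carry no read depth, so the number of arrays limits the precision. Odorant, pheromone and taste receptor genes (1227 genes) are hardly used in gut, and their 95th percentile served as a background level, between 5.79 and 6.25 on the cKO arrays and between 6.19 and 6.36 on the control arrays.

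Cdh1 itself (probe set 10575052) read 9.70, 8.38 and 8.91 on cKO 1, 2 and 3, against 9.86, 9.82 and 10.15 on controls 1, 2 and 3. All cKO arrays lay below all control arrays. The difference was -0.95 ± 0.31 (SE), 51.9% of the control level, with an adjusted p of 0.0884 in limma and an exact two-sided permutation p of 0.1, the smallest that 3 against 3 arrays can give. Without cKO 1 the difference was -1.30 and passed the threshold, with an adjusted p of 0.0118 in limma. Without cKO 2 it was -0.64 (0.145), and without any other 1 array it did not pass either (0.159 to 0.256). Where the probe set lies relative to the deleted part is not known here.

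Of the 33 measured genes, 23 fell in cKO intestine, none rose in limma with or without adjustment, and 10 did not pass the test. The background over all 19938 genes was 7.36% called lower and 6.81% called higher. All 33 differences were negative, between -1.76 and -0.05, with a median of -0.74, or 59.9% of the control level. The median over all genes was -0.09. In 31 of the 33 genes every cKO array lay below every control array, a separation that 19.3% of all genes showed. Of the 33, 9 were called lower and at least 2-fold lower, against 2.59% of all genes. The sign of the smallest difference, that of Acox2, turned positive when the arrays were scaled by quantiles, by medians, by cyclic loess or on epithelial genes, by at most 0.17.

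**Figure D1:**
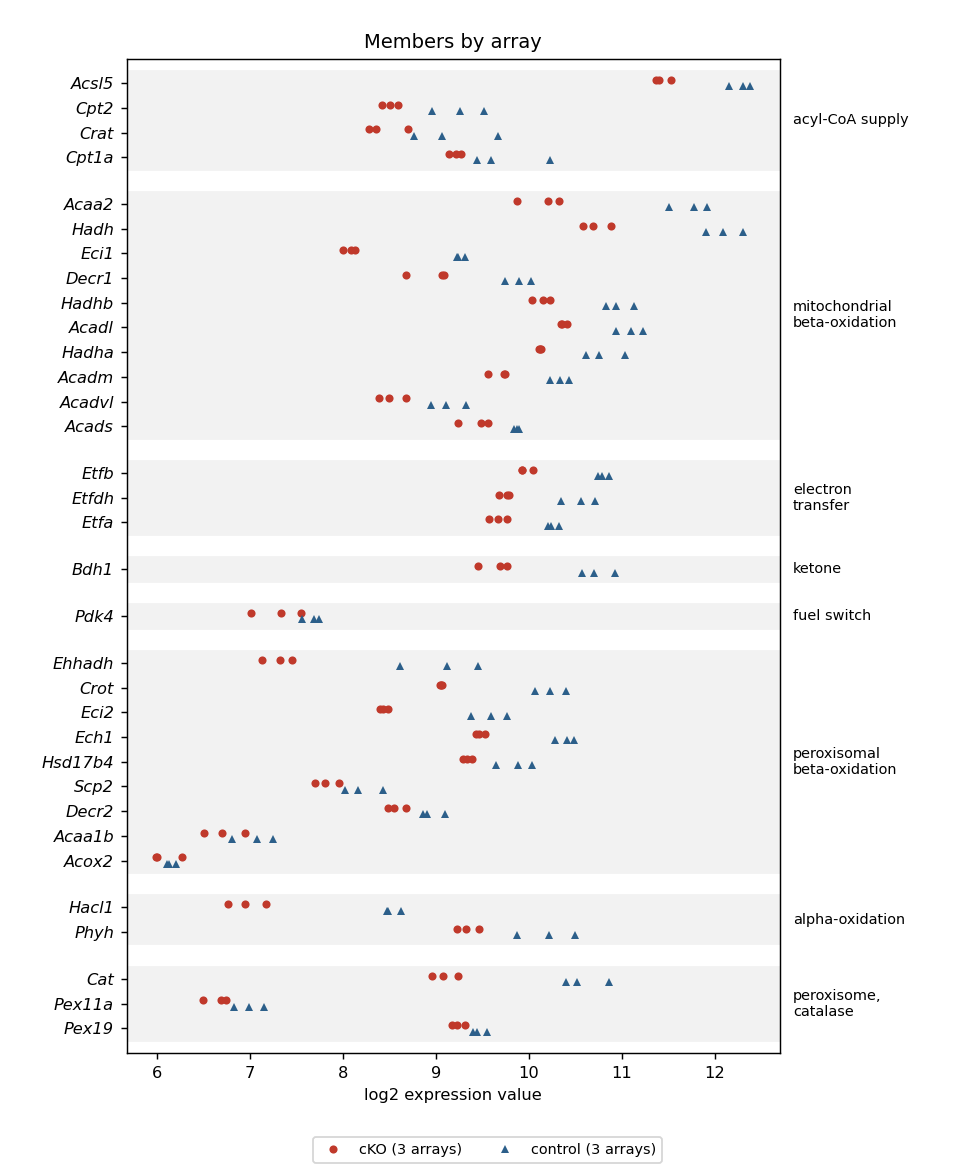
Log2 expression value of each of the 33 measured genes on each array, grouped by role, with cKO arrays as circles and control arrays as triangles (3 each). Circles and triangles overlap only for Acox2 and Acaa1b, and the widest separations include those of Ehhadh, Acaa2, Hacl1 and Cat.

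Activation and entry into mitochondria came first in the pathway. Acsl5, which links long-chain fatty acids to coenzyme A, was one of the brightest members (probe set 10464045). It read 11.40, 11.53 and 11.36 on cKO 1, 2 and 3, against 12.15, 12.30 and 12.38 on controls 1, 2 and 3. The difference was -0.85 ± 0.12 (SE; 95% interval -1.12 to -0.57; limma adjusted p 0.00434). Cpt2, the carnitine palmitoyltransferase of the inner membrane (probe set 10514933), read 8.59, 8.42 and 8.50 in cKO, against 8.96, 9.26 and 9.51 in control intestine. Its difference was -0.74 ± 0.16 (SE; limma adjusted p 0.0217). The call on Cpt2 was lost without cKO 3 (adjusted p 0.0704), without control 2 (0.0883), without control 3 (0.0673) and with arrays centred on epithelial markers (0.0655). Cpt1a, the regulated outer-membrane transferase, did not pass. It averaged 9.21 ± 0.07 in cKO and 9.75 ± 0.41 in control intestine (SD, n = 3 each), and control 3 alone reached 10.22. Crat, the transferase for short acyl groups, also spread widely among the controls and did not pass, with a difference of -0.72 (limma adjusted p 0.0937).

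Of the 10 enzymes of the mitochondrial beta-oxidation cycle, 9 were called lower. The dehydrogenases of the first step differed by -0.61 for Acadvl, which takes very long chains, -0.72 for Acadl, which takes long chains, and -0.65 for Acadm, which takes medium chains. Acads, for short chains, had a difference of -0.44 and did not pass (limma adjusted p 0.0541). The subunits of the trifunctional protein, which carries out the later steps on long chains, differed by -0.68 for Hadha and -0.83 for Hadhb. Hadha, described by array after its values were seen, was nearly level across the cKO arrays, at 10.13, 10.12 and 10.11, and read 10.61, 10.75 and 11.03 in control intestine. Some of these calls were lost when 1 array was left out, with fewer arrays in the fit. Acadvl lost its call without any 1 of cKO 1, 2 or 3 or control 2 or 3 (limma adjusted p 0.0524 to 0.11). Its differences in those fits lay between -0.69 and -0.51. Hadha lost its call without cKO 3 (0.0606, difference -0.67) or control 2 (0.0671, difference -0.70). With arrays centred on epithelial markers, 5 of the 10 enzymes were called, and Acadl (adjusted p 0.0727), Acadm (0.145), Acadvl (0.177) and Hadha (0.0971) were not.

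Acaa2, Hadh and Eci1 had the most negative mitochondrial differences, and Decr1 followed. Acaa2, the thiolase that releases acetyl-CoA (probe set 10456699), read 10.20, 9.87 and 10.32 on cKO 1, 2 and 3, against 11.50, 11.77 and 11.91 on controls 1, 2 and 3. The gap between the groups was more than 1 log2 unit, and the difference was -1.60 ± 0.17 (SE; 95% interval -1.98 to -1.21; limma adjusted p 0.0017), 33.1% of the control level. Eci1, the isomerase that moves a double bond into the position the cycle can use (probe set 10442445), read 8.13, 8.0 and 8.08 in cKO, against 9.24, 9.31 and 9.22 in control intestine. Both groups were tight, at 8.07 ± 0.07 and 9.26 ± 0.05 (SD, n = 3 each), and the difference was -1.19 ± 0.10 (SE; limma adjusted p 0.00102). Hadh, the dehydrogenase for short and medium hydroxyacyl chains, is also described by array, a choice made after its values were seen. It read 10.88, 10.58 and 10.69 in cKO and 11.90, 12.09 and 12.30 in control intestine, a difference of -1.38 ± 0.15 (SE; limma adjusted p 0.00176). Decr1, the reductase for conjugated double bonds, differed by -0.94 (limma adjusted p 0.00706).

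All 3 genes of electron transfer from the acyl-CoA dehydrogenases fell. Etfb (probe set 10552418) read 9.92, 9.92 and 10.04 in cKO, against 10.74, 10.86 and 10.78 in control intestine. The difference was -0.83 ± 0.11 (SE; 95% interval -1.08 to -0.58; limma adjusted p 0.00336). Etfdh, the oxidoreductase that passes the electrons on to ubiquinone (probe set 10498837), read 9.76, 9.68 and 9.78 in cKO, against 10.34, 10.56 and 10.71 in control intestine. Its difference was -0.80 ± 0.13 (SE; limma adjusted p 0.00748), and the highest cKO array lay 0.70 below the lowest control for Etfb and 0.56 below it for Etfdh. Etfa, the partner of Etfb in the flavoprotein, differed by -0.59, a call that was lost without cKO 3 (adjusted p 0.0584), without control 2 (0.0755), with arrays centred on their medians (0.0502) and with arrays centred on epithelial markers (0.217).

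**Figure D2:**
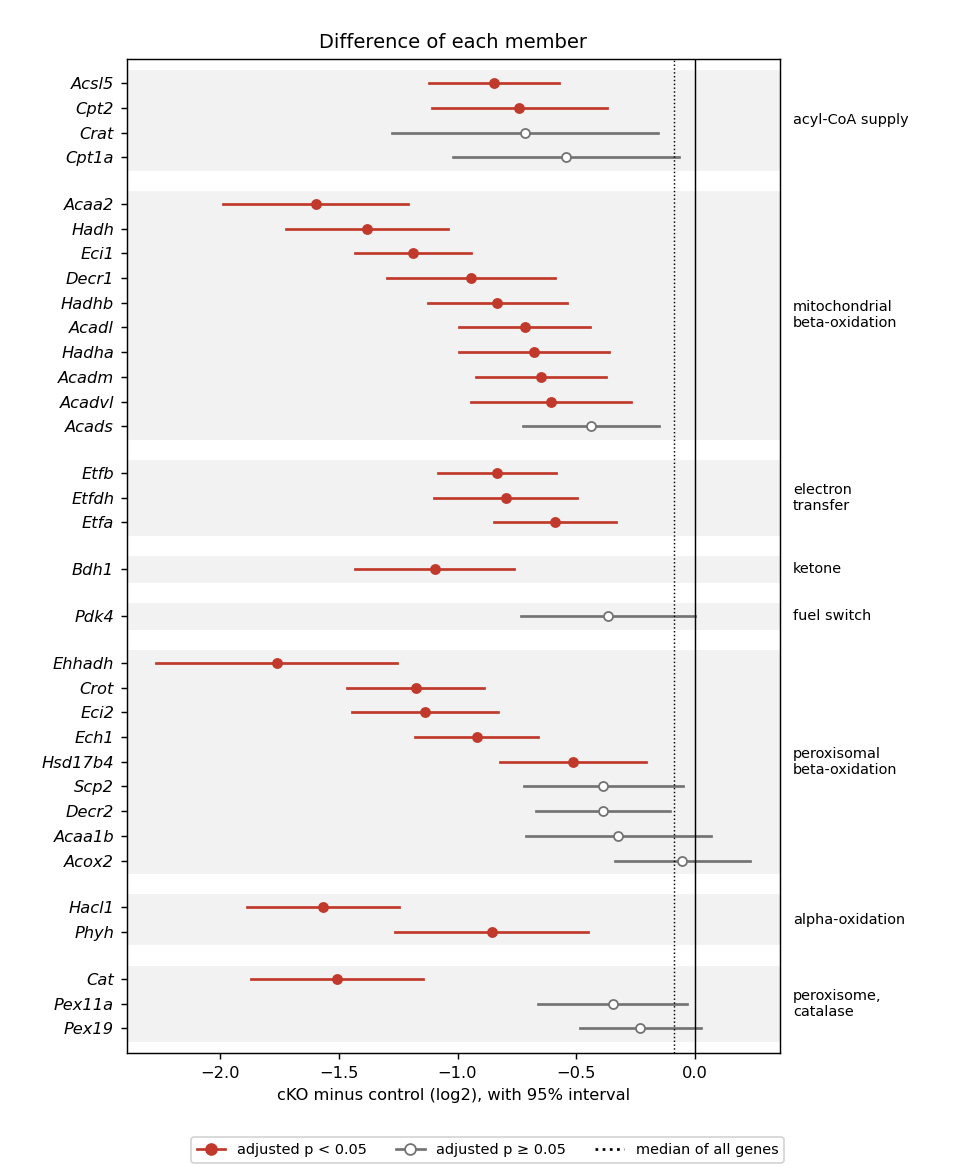
Difference between cKO and control intestine (log2) for each of the 33 genes, with its 95% interval, grouped by role. Filled symbols mark the 23 genes with an adjusted p under 0.05, the solid line is 0 and the dotted line is the median of all genes, -0.09.

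The ketone side of the list could be read from 1 gene. Bdh1 turns acetoacetate into beta-hydroxybutyrate and back (probe set 10434934). It read 9.69, 9.45 and 9.76 on cKO 1, 2 and 3, against 10.57, 10.70 and 10.92 on controls 1, 2 and 3. The difference was -1.10 ± 0.14 (SE; 95% interval -1.43 to -0.76; limma adjusted p 0.00354), 46.8% of the control level. Pdk4, a kinase that restrains pyruvate dehydrogenase when fat is burned (probe set 10543017), read 7.33, 7.01 and 7.55 in cKO, against 7.56, 7.69 and 7.74 in control intestine. Its groups were separated by 0.01 and it did not pass (difference -0.37, 95% interval -0.73 to 0.0014, limma adjusted p 0.175).

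In a related list of ketone metabolism, 2 of 6 measured genes were called lower and 2 higher. Oxct1, the transferase with which tissues other than liver use ketone bodies, read 10.25, 10.21 and 10.19 in cKO, against 9.16, 8.89 and 8.68 in control intestine. It was 2.47-fold higher in cKO (difference 1.31 ± 0.14 SE, limma adjusted p 0.002), the opposite direction to Bdh1. Slc16a6, a ketone exporter of the zebrafish liver, fell by 1.18 on the log2 scale (limma adjusted p 0.00948). Acat1, the mitochondrial acetoacetyl-CoA thiolase, fell by 0.85 on the log2 scale (adjusted p 0.0219), a call lost without cKO 1 (0.0534), control 2 (0.0823) or control 3 (0.0632). Slc16a7, a monocarboxylate importer, is the other gene called higher (adjusted p 0.0199), but its control values were all at or below the background level and its cKO mean of 6.16 was below the mean control background of 6.27, so no rise can be bounded. Its call was lost without cKO 3 (0.0729), control 2 (0.0899) or control 3 (0.0828). Bdh2 and Slc16a1 did not pass.

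Peroxisomal beta-oxidation was lower in part, with 5 of 9 measured genes called. Ehhadh, the bifunctional enzyme for straight chains (probe set 10438575), had the most negative difference of the 33 genes and is described by array for that reason, after its values were seen. It read 7.45, 7.13 and 7.32 on cKO 1, 2 and 3, against 8.61, 9.12 and 9.45 on controls 1, 2 and 3, a difference of -1.76 ± 0.22 (SE; 95% interval -2.27 to -1.25; limma adjusted p 0.00296) and 29.5% of the control level. Crot, which puts shortened chains onto carnitine for export to mitochondria (probe set 10528102), read 9.05, 9.06 and 9.04 in cKO, against 10.06, 10.22 and 10.40 in control intestine. The cKO values were within 0.02 of each other, and the difference was -1.18 ± 0.12 (SE; limma adjusted p 0.00171). Eci2, an isomerase for unsaturated chains (probe set 10408656), read 8.43, 8.48 and 8.40 in cKO, against 9.37, 9.59 and 9.76 in control intestine, a difference of -1.14 ± 0.13 (SE; limma adjusted p 0.00234). Ech1, another isomerase of unsaturated chains, differed by -0.92 (limma adjusted p 0.00258).

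The other peroxisomal beta-oxidation genes differed less. Hsd17b4, the second bifunctional enzyme, which also serves branched chains, differed by -0.51, with an adjusted p of 0.0408 in limma. That call was lost without cKO 1 (0.0847), cKO 2 (0.0678), cKO 3 (0.0983), control 2 (0.148) or control 3 (0.133), and under quantile scaling (0.0538), cyclic loess (0.0537), median centring (0.109), epithelial centring (0.307) and the replicate block (0.0675). Scp2, which carries the thiolase for branched chains, and Decr2, the peroxisomal dienoyl reductase, each had a difference of -0.39 and did not pass. Acaa1b, a peroxisomal thiolase with a near-identical copy in Acaa1a whose signal may not be separable, had a difference of -0.32 and did not pass. Acox2, an oxidase of branched chains and bile acid intermediates, is described by array after its values were seen. It read 6.27, 5.99 and 6.0 in cKO, against 6.20, 6.10 and 6.12 in control intestine. It was above the background level on only 2 cKO arrays and 1 control array, and its difference was -0.05 (95% interval -0.34 to 0.23).

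Both alpha-oxidation genes fell. Hacl1, the lyase that splits off the terminal carbon (probe set 10418747), read 7.17, 6.94 and 6.76 on cKO 1, 2 and 3, against 8.47, 8.48 and 8.62 on controls 1, 2 and 3. The difference was -1.57 ± 0.14 (SE; 95% interval -1.89 to -1.25; limma adjusted p 0.00102), 33.8% of the control level. Phyh, the hydroxylase that starts the breakdown of phytanic acid (probe set 10469046), read 9.32, 9.22 and 9.46 in cKO, against 9.87, 10.21 and 10.49 in control intestine. Its difference was -0.86 ± 0.17 (SE; limma adjusted p 0.0178), and the call was lost without control 2 (0.0751) or control 3 (0.0543).

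Catalase and the genes of peroxisome formation did not move by like amounts. Cat (probe set 10485466) read 9.23, 9.07 and 8.95 in cKO, against 10.40, 10.51 and 10.86 in control intestine. The difference was -1.51 ± 0.15 (SE; 95% interval -1.87 to -1.15; limma adjusted p 0.00164), 35.2% of the control level. Pex11a, which promotes peroxisome division (probe set 10564805), read 6.74, 6.49 and 6.69 in cKO, against 6.82, 6.99 and 7.15 in control intestine. It did not pass (difference -0.35, limma adjusted p 0.138). Pex19, the carrier of peroxisomal membrane proteins, had a difference of -0.23 and did not pass. The 95% intervals of Cat and of each of these genes do not overlap. Among 12 further peroxins, all had negative differences, with a median of -0.40, and 4 fell: Pex7, a receptor for imported enzymes (-0.98), Pex14, a docking protein (-0.91), Pex16, a membrane-assembly protein (-0.96), and Pex2, a ubiquitin ligase subunit (-0.54). The call on Pex2 was lost without cKO 3 (adjusted p 0.0784), control 1 (0.0713), control 2 (0.0957) or control 3 (0.0517), with median centring (0.117), the replicate block (0.0558) and epithelial centring (0.339).

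Set side by side, the mitochondrial and peroxisomal genes had like medians and unlike spreads. Each gene was counted under 1 compartment only, whether or not its protein also works in the other. Of 17 mitochondrial genes (supply, cycle and electron transfer) 14 fell in the fit to the deposited values, with a median difference of -0.74 and a range of -1.60 to -0.44. Of 14 peroxisomal genes 8 fell, with a median of -0.69 and a range of -1.76 to -0.05. The upper end of that range was Acox2, above the background level on only 2 cKO arrays and 1 control array. The next smallest peroxisomal difference was that of Pex19, -0.23. The mean log2 value on the control arrays was 8.77 to 9.11 over the peroxisomal genes and 10.26 to 10.59 over the mitochondrial genes. At least 2-fold lower calls numbered 3 of 17 mitochondrial and 5 of 14 peroxisomal genes. The mean deviation from the control mean on cKO 1, 2 and 3 was -0.80, -0.91 and -0.78 for the mitochondrial genes and -0.73, -0.85 and -0.81 for the peroxisomal genes. Over all genes it was -0.01, -0.20 and -0.01. Members are not replicates of a condition, and no test of one compartment against the other was run. With each array centred on the mean of its 10 epithelial markers, an alternative chosen after seeing the data, 8 of 17 mitochondrial and 7 of 14 peroxisomal genes were called lower, so the shares called differ less there. The ketone side rests on Bdh1 alone, at -1.10.

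**Figure D3:**
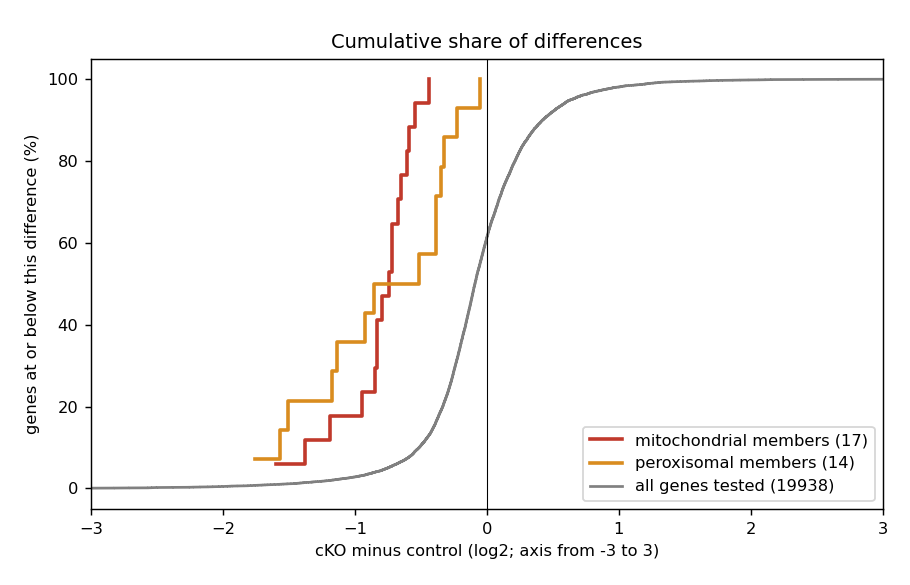
Cumulative share of genes (%) at or below each difference (cKO minus control, log2) for the 17 mitochondrial genes, the 14 peroxisomal genes and all 19938 genes tested; the axis stops at -3 and 3. The mitochondrial curve is steep and ends at -0.44, the peroxisomal curve spans -1.76 to -0.05, and the curve of all genes crosses its middle at -0.09. The last step of the peroxisomal curve is Acox2, which was close to the background level.

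The median SD among the cKO arrays was 0.101 over the 33 genes and 0.196 over all genes. Among the control arrays it was 0.170 over the 33 genes and 0.135 over all genes, so the controls spread more over these genes than over genes in general. Among the controls, control 3 had the highest value in 27 of the 33 genes, or 81.8%, against 42.3% of all genes, and control 1 the lowest in 28. Over the 33 genes the mean deviation from the control mean was -0.76, -0.89 and -0.78 on cKO 1, 2 and 3, and -0.16, -0.01 and 0.16 on controls 1, 2 and 3. The lowest control stayed above the highest cKO array. Over all genes the mean deviation was -0.01, -0.20 and -0.01 on cKO 1, 2 and 3. Array cKO 2 thus read lower in general, and the part of that offset in the SDs given here was not tested. Brush border markers had the control order of the 33 genes, with control 3 the highest in 8 of 10 genes and control 1 the lowest in 8 of 10. General epithelial markers had it too, with control 3 the highest in 9 of 10 and control 1 the lowest in 8 of 10. Smooth muscle markers had the reverse order, with control 1 the highest in 8 of 8 and control 3 the lowest in 7 of 8.

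Neighbouring pathways were measured through further gene lists, 115 measured genes in all, of which 49 were called lower and 7 higher. Of all genes, 7.36% were called lower and 6.81% higher. In mitochondrial fatty acid oxidation outside the list, 13 of 20 genes fell, among them Acad11, a long-chain acyl-CoA dehydrogenase (-1.58), Pccb, a propionyl-CoA carboxylase subunit (-0.87), and Acot2, a mitochondrial thioesterase (-1.19). Acad12, another dehydrogenase of the family, was called lower (limma adjusted p 0.00448), with all cKO values at or below the background level. Its control mean was 1.34-fold above the mean cKO background of 6.04. The mean control background was higher, at 6.27, so no lower bound of the fall is given. Acsm3, a medium-chain acyl-CoA synthetase, was the only one of the 20 that rose. It was at least 1.36-fold higher (adjusted p 0.0149), its control values being at or below the background level, and was not called without cKO 3 (0.0545). Breakdown of branched-chain and other amino acids, which feeds the same electron transfer flavoproteins, had 4 of 14 genes lower: Mccc1 (-1.11) and Auh (-0.71), both of leucine breakdown, Aldh6a1 of valine breakdown (-0.76) and Gcdh of lysine breakdown (-0.45). Aldh6a1 lost its call without cKO 3 (0.0501) or control 3 (0.0526), and Gcdh without any 1 array (0.0624 to 0.142), with median centring (0.123) and with the replicate block (0.0933). Epithelial centring ended the calls on Aldh6a1 (0.082), Auh (0.0939) and Gcdh (0.536).

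Among 31 further peroxisomal enzymes and transporters, 13 fell (41.9%) and 2 rose (6.45%), against 7.36% and 6.81% of all genes. The share that rose was thus near that of all genes. Pipox, which oxidises sarcosine and pipecolic acid, read 7.63, 7.12 and 7.46 in cKO, against 9.74, 9.87 and 10.22 in control intestine, and was 5.82-fold lower in cKO (limma adjusted p 0.00062). Acot4, a peroxisomal thioesterase, was 4.03-fold lower (0.000586), and Pecr, a peroxisomal enoyl-CoA reductase, 3.50-fold lower (0.000607). Dao, the D-amino acid oxidase, read 5.72, 5.86 and 5.48 in cKO, against 7.92, 8.15 and 7.98 in control intestine (0.000498). Only 1 of its cKO values was above the background level, so no fold is given. The 2 that rose are named after their values were seen: Agps, which makes the ether bond of plasmalogens, was 2.16-fold higher (0.00576), and Slc25a17, a carrier of cofactors across the peroxisomal membrane, 1.53-fold higher (0.00877). Slc25a17 was not called without control 2 (0.0545). Gnpat, the enzyme before Agps in ether lipid synthesis, differed by 0.24 and Far1, which supplies its fatty alcohols, by 0.74, and neither passed (limma adjusted p 0.254 and 0.0523).

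**Figure D4:**
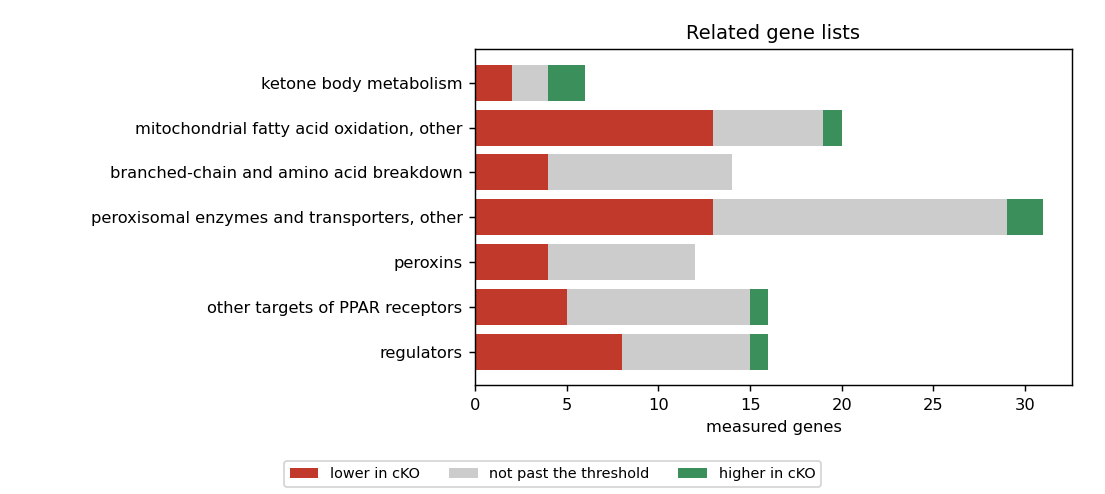
Number of measured genes (horizontal axis) in each of 7 related lists that were lower in cKO, not past the threshold, or higher in cKO. The longest bar, 31 further peroxisomal enzymes and transporters, holds 13 lower and 2 higher genes, and all 12 peroxins are either lower (4) or not past the threshold.

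A list of 16 regulators was measured too, receptors, cofactors, sirtuins and 2 lipases that release fatty acids, of which 8 fell and Pparg rose. Lipe, one of the lipases, is among the 8. Ppara read 6.85, 6.31 and 6.78 in cKO, against 7.69, 7.62 and 7.91 in control intestine, a difference of -1.09 ± 0.17 (SE; limma adjusted p 0.00681). Pparg, known from fat cells and macrophages and also present in gut epithelium, read 7.96, 7.97 and 8.21 in cKO, against 6.96, 7.04 and 7.30 in control intestine, a difference of 0.95 ± 0.14 (SE; limma adjusted p 0.00529). Esrra, an orphan receptor that drives mitochondrial genes, differed by -1.03 (0.00413), Nr1h3, a sterol receptor, by -1.01 (0.00406), and Hnf4g, an enterocyte receptor, by -1.52 (0.00668). Hnf4a, a close relative of Hnf4g, differed by -0.88 (0.0175) and lost its call without cKO 3 (0.0649). Ppargc1a, the coactivator of mitochondrial genes, was called lower (0.0423), with all cKO values at or below the background level. Its control mean was 1.58-fold above the mean cKO background of 6.04, but the mean control background was higher, at 6.27. The call on Ppargc1a was lost without cKO 2 (0.0946), cKO 3 (0.127), control 1 (0.0661), control 2 (0.108) or control 3 (0.148). It was also lost with the replicate block (0.0586) and with epithelial centring (0.0508).

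Of 16 other known targets of PPAR receptors, 5 were lower (31.25%) and 1 higher (6.25%), against 7.36% and 6.81% of all genes. Fabp1, the liver-type fatty acid binding protein, read 10.94, 10.01 and 10.87 in cKO, against 12.23, 12.63 and 12.63 in control intestine, and was 3.71-fold lower in cKO (limma adjusted p 0.00429). Acot1, a cytosolic thioesterase, differed by -1.73 (0.000721), Cd36, a fatty acid receptor and transporter, by -1.45 (0.00693), and Creb3l3, a transcription factor of lipid metabolism, by -1.42 (0.00385). Acot1 and Acot2 are near-identical copies, so their signals may not be separable. Vnn1, a pantetheinase named after its values were seen, was at least 1.71-fold higher (0.0193), with control values at or below the background level. Its call was lost without cKO 1 (0.0516), control 2 (0.057) or control 3 (0.063). Angptl4 and Fgf21, targets that respond to fasting in liver and fat, differed by -0.06 and -0.05 and did not pass. The fatty acid hydroxylases Cyp4a10, Cyp4a14 and Cyp4a31 were at or below the background level on all arrays.

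PPAR receptors bind, with a partner, to a direct repeat of AGGTCA in which 1 free base separates 2 copies. RefSeq promoters (GRCm38.p6, 250 bases before to 50 after each start) were searched on both strands, allowing 2 mismatches. An entry was found for 30 of the 35 listed genes, and 3 of the 30 (10%) held a match, Cat, Etfa and Acox2, against 4.40% of 27025 genes. Matches were in 2 of 20 genes called lower and in 1 of 8 measured genes not called. Among the related lists 11 of 98 genes (11.2%) held one, including Fabp1 and Echs1, a hydratase of the mitochondrial cycle (difference -0.45, limma adjusted p 0.0335). The matches before the start of Cat, Etfa, Fabp1 and Echs1 are printed with 30 bases on each side, on the gene's strand. The match is in capitals, to show how far the letters depart from the repeat. Those of Acot4, Aldh6a1, Cd36, Creb3l3 and Plin2, also called lower, and of Rxra and Ucp3, not called, are not printed. A match is a description and not a bound site.
Cat, chr2:103485315-103485387, minus strand, match 204 bases before the start: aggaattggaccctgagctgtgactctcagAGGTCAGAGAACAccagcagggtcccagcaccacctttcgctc
Etfa, chr9:55512278-55512350, minus strand, match 77 bases before the start, on the opposite strand: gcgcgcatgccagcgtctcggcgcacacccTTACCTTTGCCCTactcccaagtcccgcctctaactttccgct
Fabp1, chr6:71199782-71199854, plus strand, match 67 bases before the start, on the opposite strand: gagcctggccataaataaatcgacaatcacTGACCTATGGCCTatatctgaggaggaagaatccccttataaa
Echs1, chr7:140116462-140116534, minus strand, match 83 bases before the start: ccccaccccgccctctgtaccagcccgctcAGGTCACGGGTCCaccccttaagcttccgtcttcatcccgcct
The match in Fabp1 has 1 mismatch and the other 3 have 2 each.

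Markers of the cell types in the tissue also differed between the groups. Of 10 brush border genes of mature enterocytes, 6 fell and none rose, with a median difference of -1.21. Their summed linear level was 4482 to 6937 on the cKO arrays, against 12576 to 18255 on the control arrays. Of 10 general markers of intestinal epithelium, 3 fell and 2 rose, with a median of -0.31 and a summed level of 23961 to 25181 in cKO, against 26010 to 32836 in control intestine. Epcam (-0.10), Cdh17 (-0.15), Vil1 (-0.31), Lgals4 (-0.31) and Alpi (-0.84, limma adjusted p 0.0546) did not pass. For Vil1, Lgals4 and Alpi every cKO array lay below every control array. Fabp2 (-1.68), Cdx2 (-0.79) and Cdx1 (-0.60) fell, and the keratins Krt8 (0.91) and Krt20 (1.61) rose.

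All 8 smooth muscle and all 8 mesenchyme markers rose, with medians of 0.87 and 0.77. The summed level of the smooth muscle markers was 25070 to 27080 in cKO, against 13930 to 16769 in control intestine, and that of the mesenchyme markers 16690 to 19591, against 10356 to 12175. Of 10 macrophage and neutrophil markers 7 rose, with summed levels of 1903 to 2948 in cKO, against 1183 to 1269 in control intestine. The part of these shifts in the differences of the oxidation genes was not tested. With each array centred on the mean of its 10 epithelial markers, 16 of the 33 genes were called lower, 723 of all genes (3.63%) were lower and 1897 higher, against 1467 lower and 1358 higher without it, and the members' median was -0.51. Such centring shifts all genes of an array alike, so it cannot change the members' median relative to that of all genes (-0.65).

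**Figure D5:**
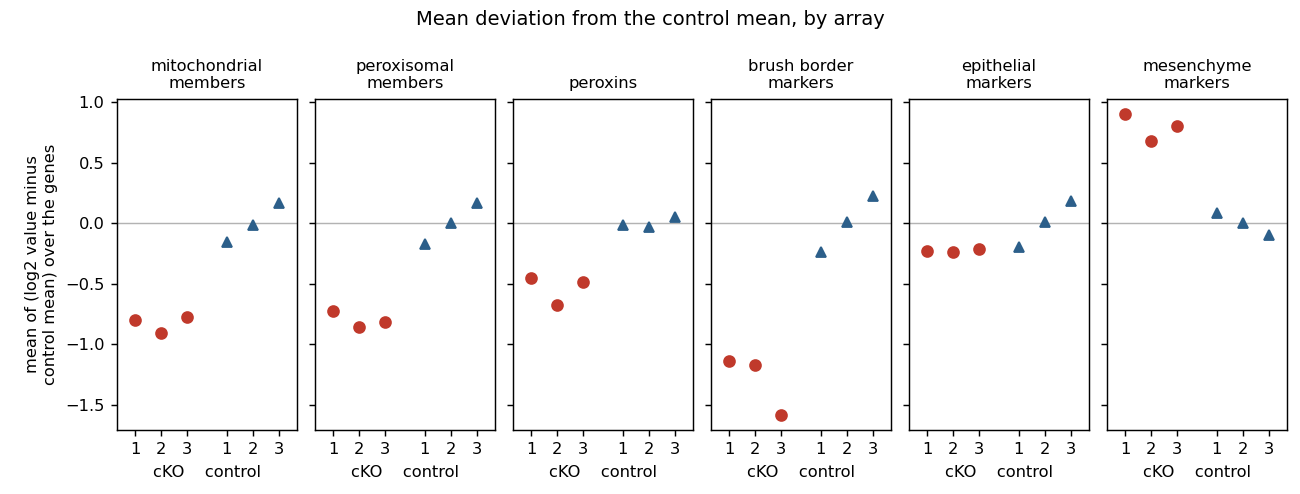
Mean deviation from the control mean (log2) over the genes of 6 lists, for cKO 1 to 3 (circles) and controls 1 to 3 (triangles). Mitochondrial and peroxisomal genes lie between -0.91 and -0.73 on the cKO arrays, brush border markers between -1.58 and -1.14, epithelial markers between -0.24 and -0.21, and mesenchyme markers between 0.68 and 0.91. Over all genes, not drawn, the mean deviation was -0.20 on cKO 2 and -0.01 on cKO 1 and 3.

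Among other residents of the gut wall, Uchl1, a neuronal gene, was the only one called, higher, among 6 neuron and glia markers, and 0 of 6 endothelial markers were called in limma, with 4 under 0.05 before adjustment. Tissues rich in these pathways were checked as well. Of the brown fat markers, 0 of 6 were called in limma, with Cox7a1 the one under 0.05 before adjustment (difference -0.79). Their summed linear level was 529 to 795 in cKO, against 906 to 1149 in control intestine, and Ucp1, Cidea and Adipoq were at or below the background level on all 6 arrays. Of the liver markers, only Fgb was called (lower) among 7, and Alb, Ahsg, Apoh, Tat and Cyp2e1 were at or below that level on all arrays. Ttr, the brightest of the liver markers, read 10.18, 10.03 and 8.94 in cKO, against 11.28, 11.05 and 9.74 in control intestine, and was not called. Exocrine pancreas markers stood apart on cKO 3, where their mean deviation was 4.04, against -0.14 and -0.55 on cKO 1 and 2 and -0.11 to 0.17 on the control arrays. Without cKO 3, 18 of the 33 genes were called lower, and 859 of all genes were, against 1467 with it. Without control 2 the counts were 17 and 717, and without control 3 they were 19 and 838. Each of these fits had fewer arrays.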

How the data were processed

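The authors' deposited values were used, 1 log2 value per probe set and array for 35512 probe sets, between 0 and 14.07. The series design text names dChip. The log2 scale was read from that range, and the sources used here do not give dChip's version or settings. Gene names came from the platform annotation (21789 with 1 symbol, 1621 with several, 12102 unlisted); where a gene had several, the brightest was used. Groups came from the sample titles. Each gene was tested with limma 3.58.1 in R 4.3.3 (lmFit and eBayes, two-sided, 3 cKO against 3 control arrays, no covariate), with Benjamini-Hochberg adjustment over 19938 genes and a threshold of 0.05; the code was tested on simulated data. The members and lists were chosen with earlier results of these data known. The labels do not say whether samples came from separate animals and give no batch, so p-values measure only how these samples spread, possibly for technical reasons. Every measured member was named; values on all arrays were given for the 2 with the smallest p in each role (and for Hadh, Hadha, Ehhadh and Acox2, chosen after their values were seen), and up to 4 called genes with the smallest p per related list were named, along with Ppara, Ppargc1a and Hnf4a. Other genes of the related lists, such as Echs1, Gnpat, Far1, Lipe and Angptl4, were named outside that rule. Alternatives covered scaling, array weights, a mean-variance trend, a replicate block, averaging of probe sets, a filter on the dimmest 25% and leaving out each array. Centring on epithelial markers was chosen after seeing the data. Promoter sequences are from RefSeq; protein sequences were not used here.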

Additional observations from a re-analysis of the deposited data

How the results depend on the processing

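Across the 15 alternatives, 15 of the 33 genes were called lower in every fit, 8 called genes lost the call in at least 1, 5 uncalled genes (Crat, Acads, Scp2, Decr2 and Pex19) gained one in at least 1, and 5 (Cpt1a, Pdk4, Acox2, Acaa1b and Pex11a) were called in none. No alternative called a member higher. The members called lower numbered 17 (without control 2) to 23 when 1 array was left out, and genes called over the whole table numbered 717 to 1438 lower and 509 to 1275 higher. Fewer arrays were fitted there. Leaving out 1 array moved the members' median between -0.88 and -0.65 and the Cdh1 difference between -1.30 and -0.64. Centring on epithelial markers, chosen after seeing the data, called 16 members and 723 genes lower and 1897 higher, with a members' median of -0.51, and moved the median of all genes by 0.23. Median centring called 1091 lower and 1490 higher, quantile scaling 1413 and 1830. Array weights called 27 members, 2913 genes lower and 2921 higher, and Cdh1 passed at -0.89 (limma adjusted p 0.011), as it did with a trend at -0.95 (0.0477). The cause of these changes was not tested. The difference of Acox2 turned positive under quantile scaling (0.0597), median centring (0.0433), cyclic loess (0.059) and epithelial centring (0.17). Same-numbered cKO and control arrays correlated in their deviations by -0.08, 0.13 and 0.14. Both cKO 1 (0.15) and cKO 3 (0.14) correlated best with control 3. With 3 arrays per group, such values cannot show whether the arrays were paired, and the labels give no batch. With the replicate block, 23 members were called, with Hsd17b4 lost (0.0675) and Crat gained (0.0316), and 1223 genes were lower and 989 higher. Of 1019 values of named genes under the alternatives, 936 kept their direction and side of the threshold. Of the other values, 70 no longer passed, 9 newly passed and 4 reversed.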
